A study of Mus musculus with 7 samples.

Results

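The 5 genes described here belong to the chemokine system of mouse neural stem cells (NSCs): the ligands Cxcl12, Cxcl14 and Cx3cl1 and the receptors Cxcr4 and Ackr3. They were listed by symbol out of the 55335 gene identifiers in the count files, and the list was chosen by a rule that used their measured levels in WT against Smchd1-null samples. All 5 were found, and 4 of them passed the filter on low counts that left 13305 genes for testing. Cxcl12 did not pass.

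The study compared 4 wild-type (WT) samples with 3 that carry MommeD1, a null mutation of the chromatin repressor gene Smchd1 (named Smchd1-null here). Cells of both genotypes were of the FVB/N strain and were grown in the same NeuroCult proliferation medium with EGF and bFGF, so no group was without growth factors. Poly(A) RNA was made into unamplified cDNA and read as long nanopore reads in 2 batches, with the DCS108 kit in batch 1 and the DCS109 kit in batch 2. Batch 1 held Smchd1-null replicates 1 and 2 with WT replicate 2. Batch 2 held Smchd1-null replicate 3 with WT replicates 3 and 4, and both held WT replicate 1. The sex of the cells, the age of the source tissue and whether each sample came from a separate animal are not given in the sources used here, so all p-values measure only the spread between these samples.

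Each sample had between 2.74 and 7.74 M counted reads (M is 1000000). Smchd1 itself stood at 66.9, 56.4, 74.7 and 55.7 counts per M (CPM) in WT replicates 1 to 4 and at 17.3, 12.8 and 18.4 CPM in Smchd1-null replicates 1 to 3, which was lower in every null sample (log2 fold change −2.15, limma adjusted p 1.10e-04). All 10 NSC markers on the list were detected, with a summed level of 8953 to 13878 CPM in WT and 8527 to 10093 CPM in Smchd1-null samples, led by the radial glial fatty acid binding protein Fabp7. Of these 10, 4 were lower and none higher at an unadjusted p under 0.05 in limma, or 40.0% (background 13.9%), and their median log2 fold change was −0.23. This is the direction of Cxcr4 and Ackr3, and its part in their levels was not tested. WT replicate 4 stood apart in glial genes. Its 10 astrocyte markers summed to 3105 CPM against 894 to 959 CPM in the other WT samples, and its 10 oligodendrocyte lineage markers to 1715 CPM against 1070 to 1137 CPM. This sample also had the highest WT sums of NSC markers, 13878 CPM, and of neuron markers, 73.6 CPM. Differences without this sample are given beside each of the 4 tested genes of the list. They are a weak check, since limma gave WT replicate 4 the lowest weight of all samples, 0.45.

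Chemokines are small secreted proteins that guide cells by binding G protein-coupled receptors. Cxcl12 is the classical ligand of Cxcr4, which signals through inhibitory G proteins and helps to place precursors and migrating neurons in the developing brain. Ackr3 is an atypical receptor that binds Cxcl12 too, recruits arrestins in place of G proteins and clears the ligand from the surroundings. Cxcl14 is a related ligand whose receptor is less settled. Cx3cl1, or fractalkine, is made as a membrane protein on a mucin stalk, is released by the sheddases Adam10 and Adam17, and acts on the microglial receptor Cx3cr1.

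The ligands fall in classes by the spacing of the first cysteines of the mature chain, which can be read from their coding sequence. The cysteine pair of each ligand was located by a search for the spacing of its class, so the spacing itself was not tested. In the Gencode M21 transcripts (GRCm38), Cxcl12 and Cxcl14 have 1 codon between these cysteines and Cx3cl1 has 3. These stretches show this difference, 5′ to 3′ on the coding strand, with the cysteine codons in capitals.
Cxcl12: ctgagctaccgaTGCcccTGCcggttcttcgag
Cxcl14: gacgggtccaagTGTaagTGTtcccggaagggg
Cx3cl1: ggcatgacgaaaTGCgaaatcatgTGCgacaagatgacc
The Cxcl12 stretch lies in exon 2 at chr6:117171496-117171528 on the plus strand, with the cysteines at codons 30 and 32. The Cxcl14 stretch is joined from exons 1 and 2 between chr13:56295903-56296113 on the minus strand, with the cysteines at codons 25 and 27. The Cx3cl1 stretch lies in exon 2 at chr8:94778039-94778077 on the plus strand, with the cysteines at codons 32 and 36.

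All differences between genotypes for the 5 genes are given as descriptions, since the list was made from this contrast. In bulk RNA, fewer cells that express a gene and less of its RNA per cell cannot be told apart. Of the 4 tested genes, 2 were past an adjusted p of 0.05 in the fit (background 0.0902% of tested genes). The groups did not overlap for 3 (background 5.53%, of which 2.52% higher and 3.01% lower in Smchd1-null). These calls come from the contrast that the list was made from. Cxcl14, with 2 to 6 reads per WT sample, passed the filter on low counts only through its null samples. The shares over all genes are therefore not a like measure for it. The 2 past 0.05 were Cxcl14 and Cxcr4, and both calls depended on the fit. Cxcl14 was past 0.05 in 10 of 18 fits and Cxcr4 in 12 of 19. The adjusted p of Cxcl14 was 0.092 with edgeR, 0.107 in limma without sample weights, and 0.317 and 0.382 in limma without Smchd1-null replicates 1 and 2. For Cxcr4 it was 0.271 with edgeR, 0.323 in limma without sample weights, and 0.793 and 1.00 in limma without the same 2 samples.

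**Figure D1:**
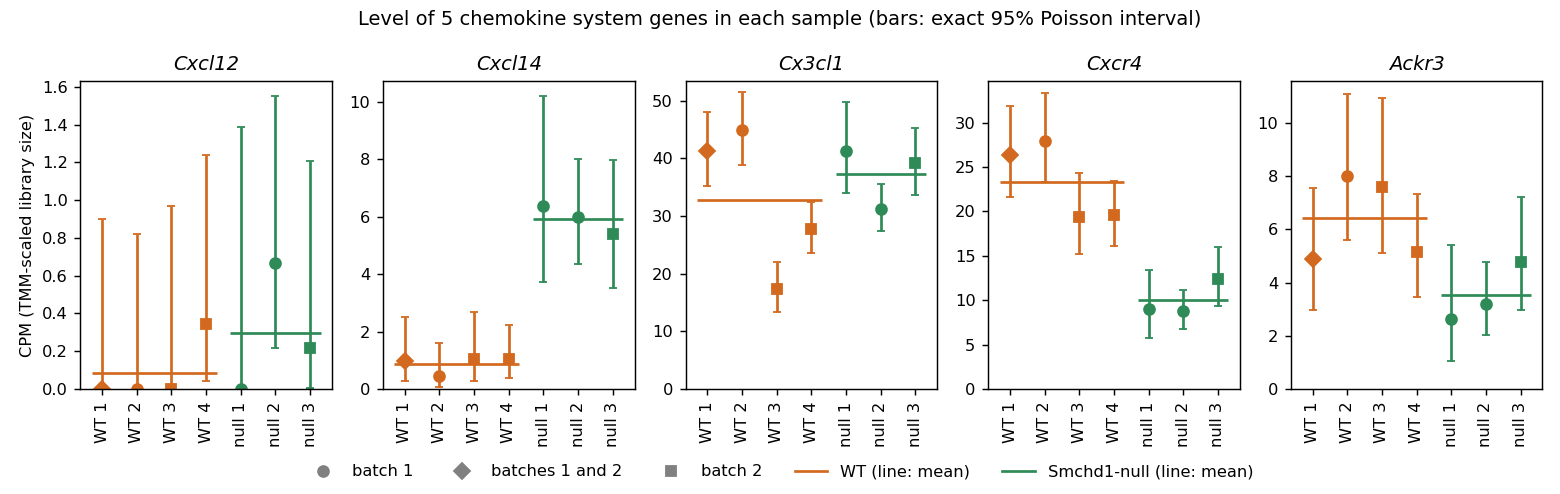
CPM of the 5 genes in each of the 4 WT (orange) and 3 Smchd1-null (green) samples, with the exact 95% Poisson interval of each count as a bar, the group mean as a line and the batch as the marker shape; each panel has its own scale. Cxcl14 was at 5.41 to 6.38 CPM in the null samples and at 0.444 to 1.05 CPM in WT, Cxcr4 and Ackr3 were lower in every null sample than in any WT sample, and Cx3cl1 overlapped.

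Cxcl14 had the largest difference of the 5 genes. The gene (ENSMUSG00000021508.11) spans chr13:56288643-56296551 on the minus strand of GRCm38. Its counts were 4, 2, 4 and 6 in WT replicates 1 to 4 and 17, 45 and 25 in Smchd1-null replicates 1 to 3. These were 0.977, 0.444, 1.05 and 1.03 CPM in WT and 6.38, 5.99 and 5.41 CPM in the null samples. Every null sample was above every WT sample, and the null samples lay close together. The mean was 0.875 ± 0.289 CPM (SD, n = 4) in WT and 5.93 ± 0.488 CPM (SD, n = 3) in Smchd1-null, a ratio of 6.78. The fitted log2 fold change was 2.63 (SE 0.42), and it was 2.67 without WT replicate 4. Within batch 1 the null samples were higher by 2.93 in log-CPM, and within batch 2 by 2.00. Batch 1 compares 2 null samples with 1 WT sample and batch 2 compares 1 null sample with 2 WT samples, since WT replicate 1 was in both and was left out here. The WT level rests on 16 reads in all, and the exact 95% Poisson interval of the pooled WT level was 0.501 to 1.42 CPM, against 4.71 to 7.25 CPM for the pooled null samples. These intervals cover counting error only.

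The promoter window of Cxcl14 is shown because the gene had few reads in WT cells. It runs from 250 bases before to 50 bases after the RefSeq start (chr13:56296502-56296801, minus strand, GRCm38.p6), with matches to the GC box GGGCGG in capitals, of which the first 2 overlap.
Cxcl14: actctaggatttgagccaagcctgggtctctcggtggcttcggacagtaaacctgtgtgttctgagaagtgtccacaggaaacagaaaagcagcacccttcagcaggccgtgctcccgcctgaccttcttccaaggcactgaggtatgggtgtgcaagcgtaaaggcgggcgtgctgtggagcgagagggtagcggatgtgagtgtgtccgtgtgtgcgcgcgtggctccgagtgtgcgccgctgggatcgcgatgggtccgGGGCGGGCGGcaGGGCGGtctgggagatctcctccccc
The window held 3 GC boxes, all after the start, and no TATAAA on either strand. It held 22 CG dinucleotides and 62.7% G and C, against medians of 7 and 52.7% over the 32851 promoters of the RefSeq table.

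Cxcl12, the ligand of both receptors, was close to absent in both genotypes. The gene (ENSMUSG00000061353.11) spans chr6:117168535-117181367 on the plus strand. No read was counted in WT replicates 1, 2 and 3 and in Smchd1-null replicate 1, and there were 2 reads in WT replicate 4, 5 in Smchd1-null replicate 2 and 1 in Smchd1-null replicate 3. The pooled level was 0.110 CPM in WT (exact 95% Poisson interval 0.0133 to 0.396) and 0.405 CPM in Smchd1-null (0.149 to 0.883). The intervals overlap, and a difference was not detectable at this depth. The count of 0 in the smallest library, Smchd1-null replicate 1, has an exact 95% Poisson upper limit of 1.38 CPM.

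Cx3cl1 was the most abundant chemokine ligand in these cells by CPM and did not differ between the genotypes beyond its spread. The gene (ENSMUSG00000031778.13) spans chr8:94772009-94782427 on the plus strand. Its level was 41.3, 44.9, 17.3 and 27.8 CPM in WT replicates 1 to 4, on 66 to 202 reads, and 41.3, 31.3 and 39.2 CPM in Smchd1-null replicates 1 to 3, on 110 to 235 reads. The 3 null samples lay inside the WT range. The means were 32.8 ± 12.7 CPM (SD, n = 4) and 37.2 ± 5.28 CPM (SD, n = 3), and the fitted log2 fold change was 0.28 (SE 0.26). The direction turned with the batch and with 1 sample. The difference in log-CPM, Smchd1-null minus WT, was −0.32 within batch 1 and 0.82 within batch 2. Without WT replicate 3, the lowest sample, the log2 fold change was −0.13, and without WT replicate 4 it was 0.24.

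Cxcr4, the signalling receptor, was lower in Smchd1-null cells. The gene (ENSMUSG00000045382.6) spans chr1:128588199-128592293 on the minus strand. Counts were 108, 126, 74 and 114 in WT replicates 1 to 4 and 24, 66 and 57 in Smchd1-null replicates 1 to 3. Levels were 26.4, 28.0, 19.4 and 19.5 CPM in WT and 9.01, 8.78 and 12.3 CPM in the null samples. No null sample reached the lowest WT sample, and WT replicates 1 and 2 stood above WT replicates 3 and 4. The means were 23.3 ± 4.50 CPM (SD, n = 4) and 10.04 ± 1.99 CPM (SD, n = 3), so that the null mean was 43.1% of the WT mean. The fitted log2 fold change was −1.29 (SE 0.21), −1.61 in log-CPM within batch 1, −0.64 within batch 2 and −1.35 in the fit without WT replicate 4.

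The promoter window of Cxcr4 is shown for the motifs around its start (chr1:128592250-128592549, minus strand, GRCm38.p6). The capitals mark the GC box GGGCGG as above, the sequence TATAAA of the TATA box, and the palindrome GCGCATGCGC known as the NRF1 site, on either strand.
Cxcr4: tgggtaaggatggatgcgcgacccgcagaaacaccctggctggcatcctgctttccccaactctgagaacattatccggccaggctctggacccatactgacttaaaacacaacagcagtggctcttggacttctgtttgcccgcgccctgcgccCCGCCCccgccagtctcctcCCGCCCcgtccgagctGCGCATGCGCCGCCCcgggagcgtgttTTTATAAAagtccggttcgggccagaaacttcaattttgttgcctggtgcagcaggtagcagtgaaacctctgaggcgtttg
TATAAA was found at −32 and −30 relative to the start, once on each strand, and these matches overlap. TATAAA occurs in 13.6% of the 32851 promoters, GGGCGG in 35.7% and the palindrome in 0.971%. The palindrome begins at −59 and shares 1 base with the last of the 3 GC boxes. Among the 5 genes only the Cxcr4 window held the palindrome, and the hypoxia response core ACGTG, found in 19.6% of promoters, was in none of the 5 windows. GC boxes numbered 5 in Cxcl12 and 1 each in Cx3cl1 and Ackr3, and the Ackr3 window had the fewest CG dinucleotides, 8, against 20 in Cxcl12, 19 in Cx3cl1 and 20 in Cxcr4. A match to these letters is a description of the window and not evidence of binding.

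Ackr3, the scavenging receptor, was lower in the null samples by a smaller step. The gene (ENSMUSG00000044337.5) spans chr1:90203980-90216751 on the plus strand. Counts were 20, 36, 29 and 30 in WT replicates 1 to 4 and 7, 24 and 22 in Smchd1-null replicates 1 to 3. Levels were 4.88, 8.0, 7.60 and 5.14 CPM in WT and 2.63, 3.19 and 4.76 CPM in the null samples. The groups did not overlap, but the highest null sample was only just under the lowest WT sample. The means were 6.41 ± 1.62 CPM (SD, n = 4) and 3.53 ± 1.11 CPM (SD, n = 3), and the null mean was 55.1% of the WT mean. The fitted log2 fold change was −0.96 (SE 0.31), −1.34 in log-CPM within batch 1, −0.37 within batch 2 and −1.02 in the fit without WT replicate 4.

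Both receptors lie on chromosome 1 and bind the same ligand, and their counts can be set against each other within a sample. The ratio of Cxcr4 reads to Ackr3 reads was 5.40, 3.50, 2.55 and 3.8 in WT replicates 1 to 4 and 3.43, 2.75 and 2.59 in Smchd1-null replicates 1 to 3. The means were 3.81 ± 1.18 (SD, n = 4) and 2.92 ± 0.44 (SD, n = 3), and the groups overlapped. The signalling receptor was thus read more often than the scavenging receptor in all 7 samples.

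Per kb of gene length, the order of the levels in WT was Cxcr4, Cx3cl1, Ackr3, Cxcl14 and Cxcl12. Cxcr4 had 12.9 ± 2.49 CPM per kb (SD, n = 4) and Cx3cl1 8.35 ± 3.23 CPM per kb, and these neighbours overlapped over the samples. Ackr3 followed at 1.91 ± 0.48 CPM per kb, Cxcl14 at 0.479 ± 0.158 CPM per kb and Cxcl12 at 0.0105 CPM per kb, with no overlap between neighbours in this order. In Smchd1-null samples the order was Cx3cl1, Cxcr4, Cxcl14, Ackr3 and Cxcl12. Cx3cl1 had 9.48 ± 1.34 CPM per kb (SD, n = 3), Cxcr4 5.56 ± 1.10, Cxcl14 3.24 ± 0.267, Ackr3 1.05 ± 0.33 and Cxcl12 0.0360 CPM per kb, and no neighbours overlapped. Cxcl14 and Ackr3 therefore exchanged places between the genotypes, as did Cxcr4 and Cx3cl1. A long read covers much of a transcript, so division by length may not suit these counts, and in CPM without length Cx3cl1 was above Cxcr4 in the WT means as well.

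Batch was not used to choose the genes and could be tested for them, but only as a shift common to both genotypes. In a fit with genotype and batch, batch 2 minus batch 1 was 0.00 (SE 0.32) on the log2 scale for Cxcl14, −0.35 (SE 0.24) for Cx3cl1, −0.11 (SE 0.22) for Cxcr4 and 0.14 (SE 0.32) for Ackr3. The limma adjusted p was 0.995, 0.341, 0.773 and 0.802 in the same order, so none of the 4 genes passed 0.25, a threshold that 38.7% of all tested genes passed for batch. With edgeR's quasi-likelihood test none of the 4 passed it either. None of the 4 had an unadjusted p under 0.05. Shifts of opposite direction in the genotypes can cancel in this term. Cxcr4 and Ackr3 were lower in batch 2 than in batch 1 in WT and higher in Smchd1-null, with WT replicate 1 left out. Cxcl14 showed the reverse. Cx3cl1 was lower in batch 2 in WT and inside its batch 1 range in Smchd1-null. A term near 0 therefore does not show that a gene is free of batch differences.

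**Figure D2:**
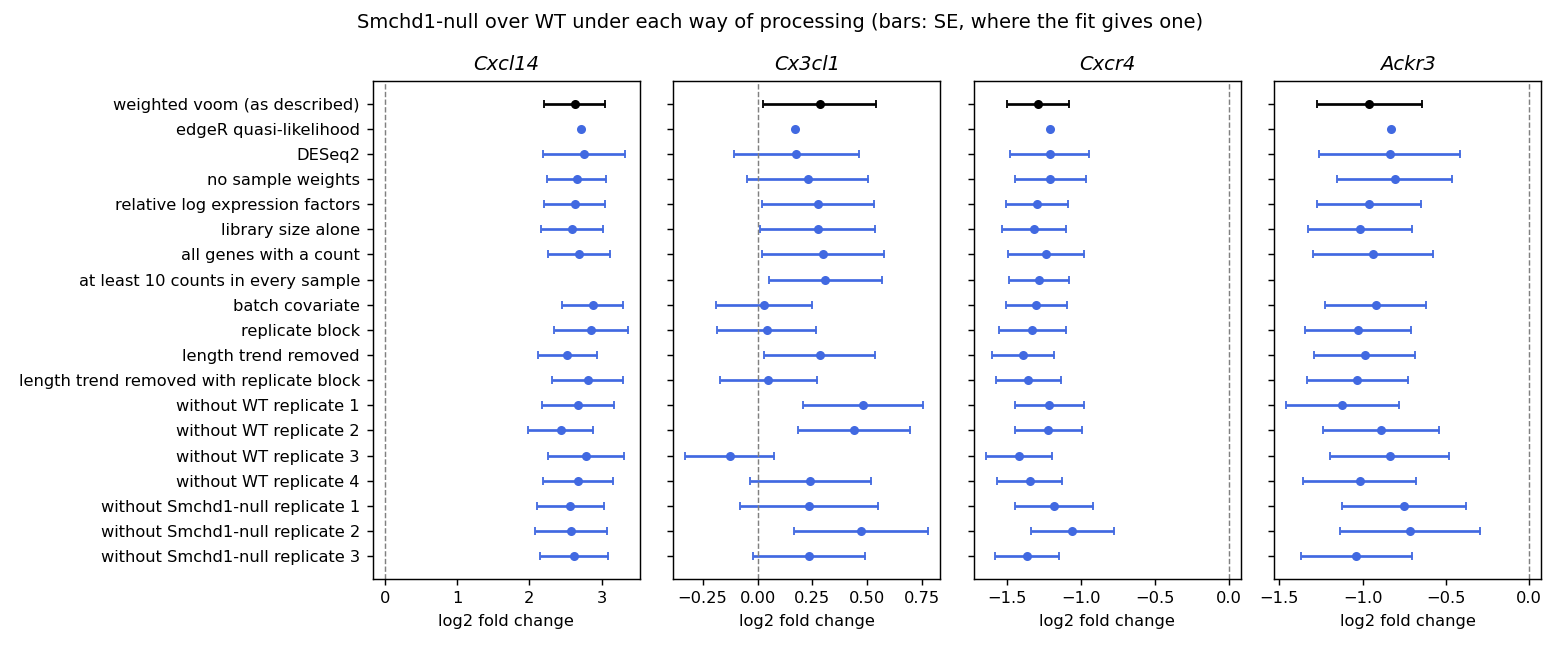
Fitted log2 fold change (Smchd1-null over WT) of the 4 tested genes under each way of processing, with the SE as a bar where the fit gives one; scales differ between panels. Cxcl14 stayed between 2.43 and 2.87, Cxcr4 between −1.42 and −1.06 and Ackr3 between −1.12 and −0.72, and Cx3cl1 ran from −0.13 to 0.48.

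The rest of the chemokine family was sparse. Of 35 other ligand genes, 27 had a count in any sample, 8 had none and 4 had enough reads to be tested. Ccl2, the monocyte attractant, had the most reads. Its level was 20.8, 16.0, 10.5 and 10.6 CPM in WT replicates 1 to 4 and 12.4, 12.5 and 9.09 CPM in Smchd1-null replicates 1 to 3, which overlap (log2 fold change −0.23, SE 0.25). Ccl25, a ligand of Ccr9 known from the thymus and gut, was at 11.8 ± 1.85 CPM (SD, n = 4) in WT and 9.11 ± 2.72 CPM (SD, n = 3) in null samples, but shares 204 exonic bases with Elavl1 on the opposite strand, so its reads are uncertain. Ccl27a, a ligand of Ccr10 known from skin, was at 2.7 ± 1.67 and 2.68 ± 0.32 CPM.

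None of the 4 tested ligands passed a limma adjusted p of 0.25 (background 1.08%), none had an unadjusted p under 0.05 (background 13.9%), and edgeR and DESeq2 called none. The median log2 fold change of these 4 was 0.07, against 0.005 over all tested genes. Cxcl5, a neutrophil attractant, was the furthest from 0. It was at 4.64 CPM in WT replicate 1 and 0.514 to 0.666 CPM in the other WT samples, and at 3.00, 2.13 and 4.11 CPM in Smchd1-null replicates 1 to 3 (log2 fold change 1.16, SE 0.60, limma adjusted p 0.395). Cxcl16, the other ligand with a mucin stalk, had 15 reads over all 7 samples. Ccl17 and Ccl22, the ligands of Ccr4 that lie beside Cx3cl1 on chromosome 8, had 22 and 0.

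**Figure D3:**
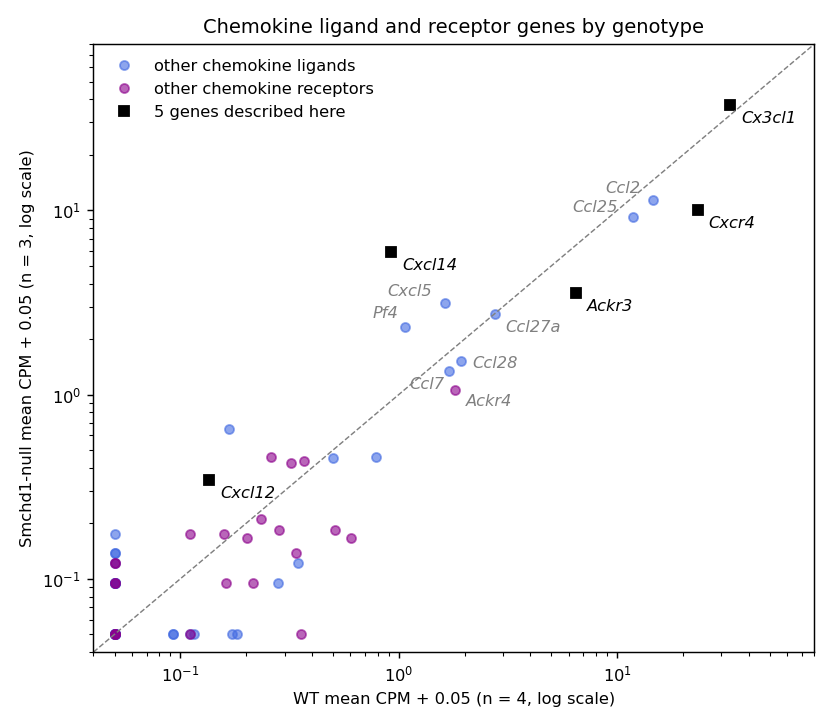
Mean CPM in Smchd1-null (n = 3) against WT (n = 4) for the 5 genes (black squares), 35 other chemokine ligands (blue) and 23 other receptors (purple), with 0.05 CPM added to each so that 0 can be drawn on log axes; the dashed line marks equal levels. Cxcl14 lies above the line, Cxcr4 and Ackr3 lie below it, and most of the family is under 1 CPM.

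Of 23 other receptor genes, 20 had a count but none had enough reads to be tested. The receptor with most reads was Ackr4, a scavenger of Ccl19, Ccl21 and Ccl25, with 46 over all samples, of which 13 were in Smchd1-null samples. Its exons overlap those of Acad11 on the opposite strand by 479 bases. Ackr1 had 15 reads, of which 13 were in WT replicate 4, and shares 361 exonic bases with Cadm3 on the same strand. The atypical receptor Gpr182 had 11. Cx3cr1, the receptor of Cx3cl1, had 3 reads in all, 2 in WT replicate 2 and 1 in Smchd1-null replicate 2, and Cxcr6, the receptor of Cxcl16, had 1. In these cultures Cx3cl1 RNA was therefore present and that of its receptor was at the limit of detection.

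Proteins that cut, carry or add to these ligands were well covered, with 11 of 13 genes tested. One passed a limma adjusted p of 0.25 in the direction of higher in null (background 0.474%) and none lower (background 0.609%). This was Mif, a cytokine that binds Cxcr4 as well as Cd74. Its level was 221.7, 325.2, 199.8 and 308.1 CPM in WT replicates 1 to 4 and 379.1, 411.9 and 262.4 CPM in Smchd1-null replicates 1 to 3. Smchd1-null replicate 3 was below WT replicates 2 and 4, so the groups overlapped. The log2 fold change was 0.63 (SE 0.17, limma adjusted p 0.233), with the same sign under all 18 alternatives, but only 6 of these called it, and edgeR (adjusted p 0.858) and DESeq2 (adjusted p 0.997) did not. The call was lost without any 1 of WT replicates 1, 3 and 4 and Smchd1-null replicates 1 and 2. Mif is a short gene with many processed copies in the mouse genome, and its call was absent once the trend of counts with gene length was removed. Its partner Cd74 had 1 read.

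The sheddases of Cx3cl1 did not pass the test. Adam10 was at 91.6 ± 10.3 CPM (SD, n = 4) in WT and 81.3 ± 13.2 CPM (SD, n = 3) in null samples (log2 fold change −0.27, SE 0.14, limma adjusted p 0.390). Adam17 was at 9.24 ± 2.82 and 9.03 ± 0.363 CPM (log2 fold change 0.04, SE 0.25), but shares 311 exonic bases with Iah1 on the opposite strand, so its reads are uncertain. Hmgb1, a nuclear protein that binds Cxcl12 outside the cell and whose gene has processed copies too, was at 220.0 ± 26.6 and 228.0 ± 13.0 CPM. Dpp4, the protease that trims Cxcl12, had 2 reads over all samples. The median log2 fold change of the 11 tested genes was −0.03.

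Among 40 genes of the Cxcr4 signalling chain, from G protein subunits and receptor kinases to arrestins and kinases further on, 37 were tested. None passed a limma adjusted p of 0.25, and edgeR and DESeq2 called none. At an unadjusted p under 0.05 there were 10, or 27.0% of those tested (background 13.9%), with 4 higher and 6 lower. Of the 37, the groups did not overlap for 2 genes higher and 3 genes lower in null samples (background 2.52% and 3.01%). Without WT replicate 2, 12 of 37 were called at 0.25, in a fit that called 2924 of 12891 tested genes. Without Smchd1-null replicate 3, 10 of 37 were called, in a fit that called 3153 of 13395. Calls were thus frequent over all genes in both fits. The genes with most reads were Gnai2, an inhibitory G protein subunit, Cdc42, a small GTPase of cell shape and movement, and Gnb1, a G protein beta subunit. Gnai2 was at 559.9 ± 128.9 CPM (SD, n = 4) in WT and 555.8 ± 98.6 CPM (SD, n = 3) in null samples. Cdc42 was at 444.2 ± 39.7 and 455.9 ± 24.5 CPM, and Gnb1 at 394.1 ± 30.2 and 394.0 ± 39.9 CPM. The median log2 fold change was −0.02, and the range was −0.57 to 0.46.

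**Figure D4:**
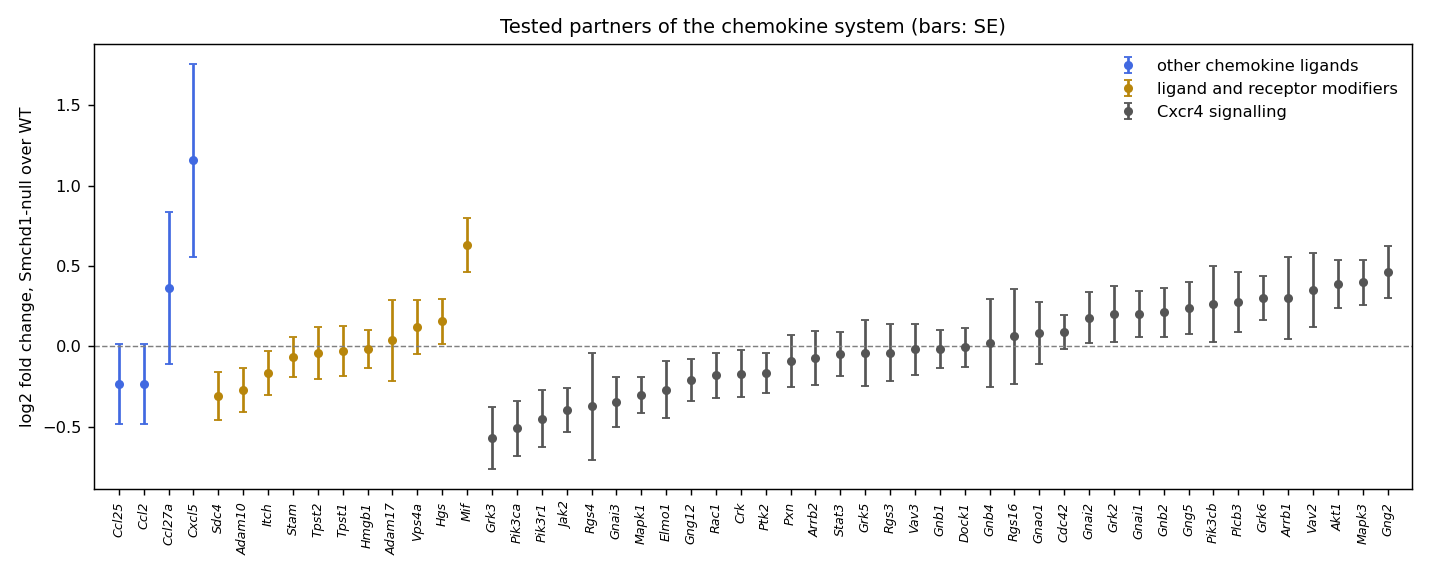
Log2 fold change (Smchd1-null over WT) with its SE for each tested gene of the other ligands (blue), the modifiers (yellow) and the Cxcr4 signalling list (grey), sorted within each list. Of these 52 genes Mif alone, at 0.63, passed a limma adjusted p of 0.25.

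Genes within 250 kb of the 5 genes were examined because position was not used to choose them. There were 60 such genes, 40 had a count and 13 were tested, of which 9 lie near Cx3cl1, 3 near Cxcr4 and 1 near Cxcl14. None passed a limma adjusted p of 0.25 (background 1.08%), and edgeR and DESeq2 called none. Without WT replicate 2, 3 of 13 were called at 0.25, in a fit that called 2924 of 12891 tested genes. Without Smchd1-null replicate 3, 2 of 14 were called, in a fit that called 3153 of 13395. With all 7 samples 2 genes had an unadjusted p under 0.05, or 15.4% of those tested, which is near the background of 13.9%. Both lie near Cxcr4. They were Dars, which encodes an aspartyl-tRNA synthetase (log2 fold change −0.30, SE 0.14), and the Gencode gene Gm6170 (0.55, SE 0.17). Gm6170 was at 36.4, 42.6, 34.6 and 34.6 CPM in WT and 48.4, 63.4 and 39.4 CPM in null samples, which overlap, and opposite in sign to Cxcr4.

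The nearest tested genes on either side showed differences of up to 0.25 in size on the log2 scale at Cxcl12 (Rassf4 and Gm7292), Cxcl14 (H2afy and Smad5) and Cx3cl1 (Arl2bp and Ciapin1). At Cxcl14 the log2 fold change was −0.12 (SE 0.22) for H2afy, which encodes the histone variant macroH2A, and −0.23 (SE 0.12) for Smad5, a BMP signal transducer. At Cxcr4 the gene on the other side, the pseudogene Rpl31-ps9, had 0.20 (SE 0.17). At Ackr3 one neighbour passed the test. D130058E05Rik, at chr1:89930234-89933290 and 270.69 kb away, was at 2.44, 1.33, 0.787 and 0.857 CPM in WT replicates 1 to 4 and 4.13, 5.72 and 3.90 CPM in Smchd1-null replicates 1 to 3. The groups did not overlap (background for higher in null 2.52%), and the log2 fold change was 1.88 (SE 0.44, limma adjusted p 0.181), opposite in sign to Ackr3. This gene passed the filter on low counts through its null samples, so the share over all genes is not a like measure for it. With edgeR the adjusted p was 0.560, and without WT replicate 4 it was 0.329 in limma. It shares 946 exonic bases with Gbx2 on the opposite strand, so the reads cannot be assigned to it with certainty. Cops8 on the other side had 0.02 (SE 0.12).

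The genes whose profile over the 7 samples was most like that of Cxcr4 were Actc1, a cardiac alpha actin, Pde9a, a phosphodiesterase of cyclic GMP, and Catsper2, a sperm cation channel subunit. Likeness was the root mean square difference in log-CPM after each gene was centred on its own mean. The 3 smallest of all tested genes were taken, so they lie under the median by selection, and the profile includes the genotype contrast that the list was made from. It was 0.243, 0.248 and 0.256 for these genes, against 0.626 for a flat line and 0.681 for the median tested gene. Pde9a was at 22.9 ± 1.79 CPM (SD, n = 4) in WT and 11.7 ± 2.26 CPM (SD, n = 3) in null samples. Actc1 was at 10.2 ± 2.96 and 4.62 ± 1.40 CPM, and Catsper2 at 5.10 ± 0.833 and 2.60 ± 0.688 CPM.

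For Cxcl14 the nearest profiles were those of the clustered protocadherins Pcdhb8 and Pcdhb11, which are adhesion proteins of neurons, and of the sialyltransferase St6gal2. The root mean square differences were 0.429, 0.434 and 0.456, against 1.17 for a flat line and 1.20 for the median tested gene. Pcdhb11 was at 5.74 ± 2.04 CPM (SD, n = 4) in WT and 19.9 ± 3.07 CPM (SD, n = 3) in null samples, and Pcdhb8 at 1.11 ± 0.602 and 5.44 ± 1.02 CPM. St6gal2 was at 0.530 ± 0.523 and 3.22 ± 0.762 CPM. Protocadherin genes of this family are alike in sequence, and their reads may be shared.

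Markers of other cell types that make or answer to chemokines were compared with the same samples. The 10 microglia and blood cell markers summed to 0.787 to 2.23 CPM in WT and 0.649 to 1.88 CPM in Smchd1-null samples, with Tmem119, C1qa, C1qb and Tyrobp at 0 in all 7 and P2ry12, with 22 reads, the highest. The endothelial and mural markers summed to 3.33 to 7.08 and 3.38 to 12.2 CPM, with Vtn at 0, and Esam had the most reads. The meningeal and fibroblast markers, of cells known to make Cxcl12, summed to 6.0 to 9.77 and 3.75 to 6.71 CPM, with Lum and Slc22a6 at 0 and most reads from Foxc1. Neuron markers, led by Dcx, summed to 24.7 to 73.6 and 26.0 to 30.3 CPM. All these ranges of sums overlapped between the genotypes, but of the leading markers Foxc1 did not. It was at 1.88 to 4.11 CPM in null samples, under its lowest WT value, 4.80 CPM (log2 fold change −0.66, limma adjusted p 0.388). Dcx overlapped (log2 fold change −1.38, limma adjusted p 0.323). Of 6 tested neuron markers Dcx alone had an unadjusted p under 0.05 (16.7%, background 13.9%). The median log2 fold change of these 6 was 0.11. The part of these differences in the levels of Cxcr4 and Ackr3 was not tested.

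Astrocyte markers summed to 665 to 1017 CPM in Smchd1-null samples, and the highest WT value, 3105 CPM, was that of replicate 4. Of the 9 tested astrocyte genes, 3 were lower and none higher at an unadjusted p under 0.05, or 33.3% (background 13.9%), and 2 were lower at a limma adjusted p of 0.25 (background 0.609%): Aldoc, a glycolytic aldolase (log2 fold change −0.81, adjusted p 0.233), and the growth factor receptor Fgfr3 (−0.51, adjusted p 0.233). Without WT replicate 4 the log2 fold changes were −0.66 and −0.45 and neither passed (limma adjusted p 0.301 and 0.367). Oligodendrocyte lineage markers, led by Olig2, summed to 1059 to 1073 CPM in null samples, and none of 9 passed by limma, with 1 at an unadjusted p under 0.05 (11.1%, background 13.9%). The median log2 fold change was −0.51 for the tested astrocyte genes and −0.40 for the tested oligodendrocyte lineage genes, against 0.005 over all tested genes. The part of these glial differences in the levels of Cxcr4, Ackr3 and Cxcl14 was not tested. With WT replicate 4 left out, the astrocyte sums of the groups still overlapped. They were 665, 733 and 1017 CPM in Smchd1-null replicates 1 to 3 and 894 to 959 CPM in WT replicates 1 to 3.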

How the data were processed

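Gene counts of NSC samples were used as deposited. Per the labels and the methods of the study, the authors base-called reads with Guppy, aligned them to mm10 with minimap2 2.17, counted primary alignments per gene with featureCounts on Gencode M23 and summed the runs of WT replicate 1. Whether the counting used strand is not given in the sources used here. The deposited counts are whole reads, not normalised, beside a gene length in bases.

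Symbols came from Gencode M21 (GRCm38), which matched 54587 of 55335 identifiers with their version and 55154 without it. File length equals the M21 exon length for the 5 genes, and no other gene overlaps them. Genes were filtered with filterByExpr and scaled by TMM, which gave the CPM. Genotype was the only term of the test, voomWithQualityWeights of limma, two-sided, with Benjamini-Hochberg adjustment over 13305 genes, at 0.05 and 0.25. Sample weights were 1.06, 0.65, 1.29 and 0.45 in WT replicates 1 to 4. They were 2.03, 1.83 and 0.67 in Smchd1-null replicates 1 to 3, so the fit leaned on the first 2 of these, both from batch 1. Log-CPM used a prior count of 2. Software was R 4.3.3, limma 3.58.1, edgeR 4.0.16 and DESeq2 1.42.0, and the fits were tested on simulated data. Exact Poisson intervals (95%) cover counting error only.

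The genes, lists and alternatives were chosen with earlier results of these data known. Genes named were the 5, Smchd1, named partners (Cx3cr1, Cxcl16, Cxcr6, Dpp4, Adam10, Adam17, Mif, Cd74, Ccl17 and Ccl22), list genes with an adjusted p under 0.25, the 3 with most reads per pathway list, the leading marker of each cell type, the nearest tested neighbours and the 3 most alike profiles. Cxcl5, Dars, Gpr182 and marker genes at 0 were named after their values were seen. One receptor outside the 5 that ranked among those with most reads is not reported here. Alternatives were other tests, scalings, filters, a batch or replicate term, removal of the length trend, and each replicate left out. No 2 samples of the same genotype agreed within sampling noise.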

Additional observations from a re-analysis of the deposited data

Results flagged for a closer look

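Of 48 gene levels and marker sums compared over the 4 WT samples, 5 had a sample that stood apart from the other 3. A rate of 1 in 20 would give 2.4, but that rate is for independent values without ties. Low counts with ties at 0 and cases that share a sample do not meet this, so 2.4 is not a measure of chance here. Cxcl14 was low in WT replicate 2, at 0.444 CPM against 0.977 to 1.05 CPM in the others, a matter of 2 reads against 4 to 6. The other cases were in WT replicate 4. Ackr1 was at 2.23 CPM there and at 0 in the other WT samples. Esam, an endothelial adhesion molecule, was at 0.343 CPM against 2.20 to 2.89 CPM. The astrocyte markers summed to 3105 CPM against 894 to 959 CPM, and the oligodendrocyte lineage markers to 1715 CPM against 1070 to 1137 CPM. Groups of 3 samples were not examined in this way.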

How the results depend on the processing

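The adjusted p of Cxcl14 was under 0.25 in 16 of 18 limma, edgeR and DESeq2 fits and under 0.05 in 10. That of Cxcr4 was under 0.25 in 14 of 19 and under 0.05 in 12, and that of Ackr3 was under 0.25 in 2 of 18. The list was made from this contrast and the fits share their samples. These tallies therefore describe how the fits differ and are not a test of the genes. The signs of the Cxcl14, Cxcr4 and Ackr3 differences held under every alternative that gave a value, and Cx3cl1 turned to −0.13 without WT replicate 3 (range with 1 replicate left out −0.13 to 0.48). Cxcl14 and Ackr3 had no value where at least 10 counts were required in every sample, and Cxcl12 had one, 1.11, only with all genes that had a count. The number of genes called at 0.25 was 144, and 8 with edgeR, 32 with DESeq2, 10 without sample weights, 22 with all genes that had a count, 346 with at least 10 counts in every sample and 74 with batch as a covariate. It ranged from 1 without Smchd1-null replicate 1 to 3153 without Smchd1-null replicate 3 when 1 sample was left out (2924 without WT replicate 2). At 0.05 there were 12, and 1 with edgeR, 1 without weights, 2 with all genes and 19 with the batch covariate, with 1 to 161 when 1 sample was left out. Mif was not called with edgeR, DESeq2, no weights, all genes, the batch covariate or the length trend removed, each of which called 0 modifiers (0 to 3 with 1 sample left out). Mif, Aldoc, Fgfr3 and D130058E05Rik kept their signs under each alternative that gave a value, but edgeR and DESeq2 called none of them. The Cxcr4 signalling list had 0 calls, up to 12 without WT replicate 2 and 10 without Smchd1-null replicate 3, and the neighbours had 0, 1 with at least 10 counts in every sample, and up to 3 and 2 without the same 2 samples. The cause was not tested.

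The batch term of Cxcl14 was −0.17, −0.05, −0.02 and −0.02 without WT replicates 2, 3 and 4 and Smchd1-null replicate 2 (range −0.17 to 0.95). That of Cx3cl1 was −0.52 without Smchd1-null replicate 2, then past 0.25 (range −1.02 to −0.11). That of Cxcr4 was 0.15 without WT replicate 2 (range −0.51 to 0.15), and that of Ackr3 was −0.27 without Smchd1-null replicate 3 (range −0.27 to 0.69).

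The replicate numbers in the labels are not said to pair the samples. Deviations of same-numbered samples correlated at −0.04, 0.36 and 0.09, and of 6 samples 3 correlated best with their own number. With the number as a replicate block, the calls at 0.05 were 23, and 37 with the length trend removed too, and those at 0.25 were 129. The log2 fold changes were 2.85 for Cxcl14, 0.04 for Cx3cl1, −1.33 for Cxcr4 and −1.03 for Ackr3 in that fit.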

Other observations

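Values of 3 genes were chosen after they were seen, and none of these genes had enough reads to be tested. Pf4, a chemokine of platelets, had 4, 2, 3 and 11 reads in WT replicates 1 to 4 and 7, 15 and 10 in Smchd1-null replicates 1 to 3. Cxcl1, a neutrophil attractant, had 1, 1, 0 and 0 reads in WT and 2, 3 and 3 in the null samples. Gm38277, a Gencode gene within 250 kb of Ackr3, had 154 reads, of which 149 were in Smchd1-null replicate 2 alone.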
